A study of Gallus gallus with 12 samples.

Results

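Whole ovarian follicles labelled Pre-recruitment were described on their own, using 6 of the 12 libraries of the series, 1 follicle from each of 6 laying hens (Gallus gallus) aged 12 months. The libraries were chosen by their stage label alone, and the F5 follicles of the same hens entered no step. The labels name no strain, treatment or follicle diameter, and every library comes from follicle tissue rather than sorted cells. Hens are called by their bird numbers, 5802, 5810, 5817, 5826, 5835 and 5840.

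A bird's follicle before recruitment holds an oocyte surrounded by granulosa cells, outside which lie theca layers with fibroblasts, smooth muscle and vessels. Theca cells of the hen make androgens and oestrogens, and granulosa cells take over progesterone synthesis as follicles mature. Anti-Müllerian hormone (AMH) and the inhibins are hormones of granulosa cells, and small growing follicles are known for high AMH.

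Named genes received 20628640 counts (hen 5840) to 29082988 counts (hen 5817) per library, and 12006 to 12047 of 12470 named genes had a count in a library. Over the 6 libraries 12313 genes had at least 1 count, and 9684 had a mean of 4 or more in TMM-scaled CPM, the library-size-adjusted count of a gene. These 9684 genes, called well expressed here, took 99.7% of the counts. The lowest chi-square between 2 libraries, of hens 5826 and 5840, was still 25.5 per degree of freedom, so all 6 were kept as separate samples. By the correlation of log2 CPM over well-expressed genes, hens 5810 and 5817 were the closest (r = 0.988). With 1 library per hen, differences between hens, follicles and library preparations cannot be told apart. In whole tissue, fewer cells of a type and less RNA per cell cannot be told apart either.

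Counts were concentrated in mitochondrial, extracellular matrix and translation genes. The most abundant gene was MT-CO1, a mitochondrially encoded subunit of cytochrome c oxidase, with 33405, 36792, 31233, 27905, 33019 and 24856 CPM in the hens in the order above (31202 ± 4256 CPM, SD, n = 6). It was highest in hen 5810 and lowest in hen 5840. The second was COL3A1, the chain of type III collagen, with 12681, 15288, 14804, 11503, 12498 and 10541 CPM. Its lowest hen was again 5840 and its highest 5810. COII and COX3, other cytochrome c oxidase subunits, followed at 12386 ± 1501 and 11749.8 ± 1573 CPM. CPM ranks are ranks of counts, not of molecules, because transcript lengths were not used here and a long transcript gives more reads.

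Of the 25 genes with the highest mean CPM, 22 to 24 were also among the 25 highest in each hen. Sixth was EMB, embigin, a partner protein of monocarboxylate transporters, at 9578 ± 1124 CPM. SPARC, a secreted collagen-binding protein, averaged 8667 ± 1921 CPM, with 10995 CPM in hen 5817 and 6391 CPM in hen 5840. COL1A2 and COL1A1, the chains of type I collagen, stood at 6538 ± 924 and 6254 ± 1109.6 CPM. CYP19A1, the aromatase that makes oestrogens, held rank 24 with 2851, 2119, 2851, 2493, 2122 and 1662 CPM. Reads of ACTB, EEF1A1 and other genes with near-identical copies were divided by estimation, so their single values are uncertain.

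**Figure D1:**
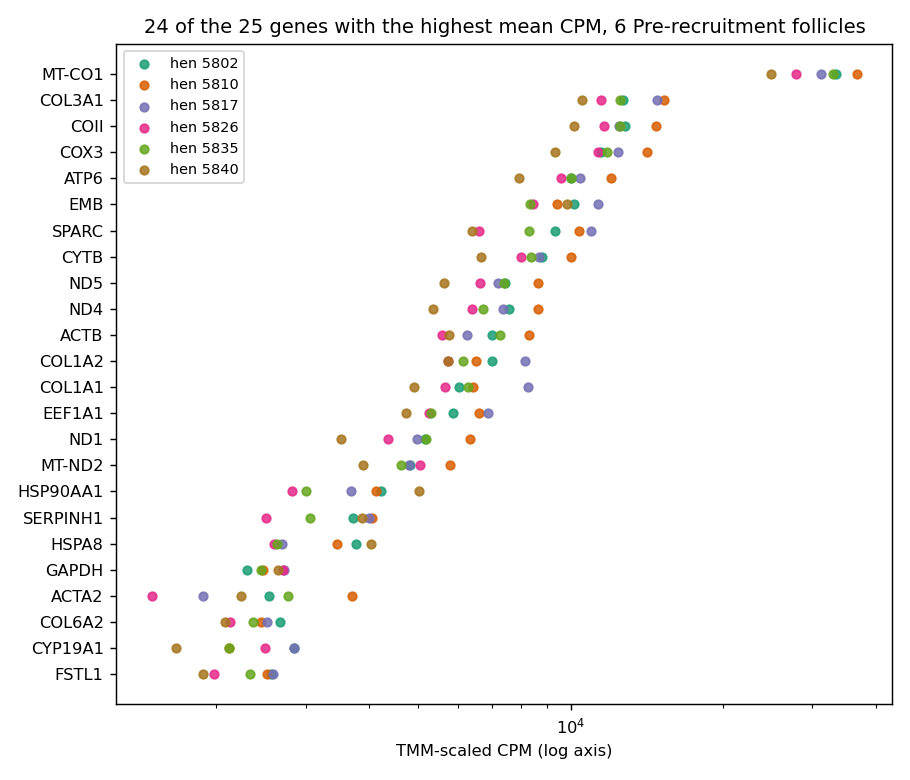
TMM-scaled CPM (log axis) of 24 of the 25 genes with the highest mean, 1 point per hen. MT-CO1 stood apart at 24856 to 36792 CPM, COL3A1 at 10541 to 15288 CPM, and the points of most neighbouring genes lower in the list overlapped.

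The single most abundant gene took 3.11% ± 0.318 of the counts (SD, n = 6), the 25 most abundant took 18.1% ± 1.36, the 100 most abundant 27.5% ± 1.73 and the 1000 most abundant 56.4% ± 1.89. At the other end, 560 genes (hen 5810) to 779 genes (hen 5840) held 50% of the counts, and 4847 to 5106 genes held 90%. Thus 83 genes with a mean of 1000 CPM or more took 25.9% of the counts of named genes, and 4 genes passed 10000 CPM. Hens 5826 and 5840 had the flattest distributions, with 769 and 779 genes needed for 50%.

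The 13 mitochondrially encoded genes took 10.2% ± 1.01 of the counts, from 8.49% in hen 5840 to 11.6% in hen 5810. Collagens and other matrix genes, 79 in the table, took 6.22% ± 0.547, from 5.52% in hen 5826 to 7.03% in hen 5817. Cytoplasmic ribosomal protein genes took 3.81% ± 0.498, highest in hens 5817 (4.51%) and 5810 (4.3%) and lowest in hens 5840 (3.29%) and 5826 (3.36%). Translation factors took 2.15% ± 0.101. Genes in none of the classes held 60.8% ± 1.73 of the counts.

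Classes differed in how evenly the hens shared them. Shares are fractions of library totals without TMM scaling, whose factors ran from 0.948 in hen 5810 to 1.054 in hen 5840. The ranking of classes by spread below therefore holds for these shares alone. Proteasome genes, whose products form the protein-degrading complex, took 0.439% with a coefficient of variation (CV) of 0.938% over hens, the lowest of all classes. Nuclear-encoded oxidative phosphorylation genes followed with a CV of 2.05%. The red cell genes had the highest CV, 30.2%, around a share of 0.0154%, then leukocyte genes (0.115%, CV 21.8%), smooth muscle contractile genes (1.25%, CV 20.9%) and the ferritin, ubiquitin and metallothionein class (0.302%, CV 18.2%). Smooth muscle contractile genes took 1.25%, 1.52%, 1.19%, 0.847%, 1.55% and 1.14% in the 6 hens, with hen 5826 lowest. Cytosolic and mitochondrial chaperones took 1.77% in hen 5840 and 1.21% in hen 5835.

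**Figure D2:**
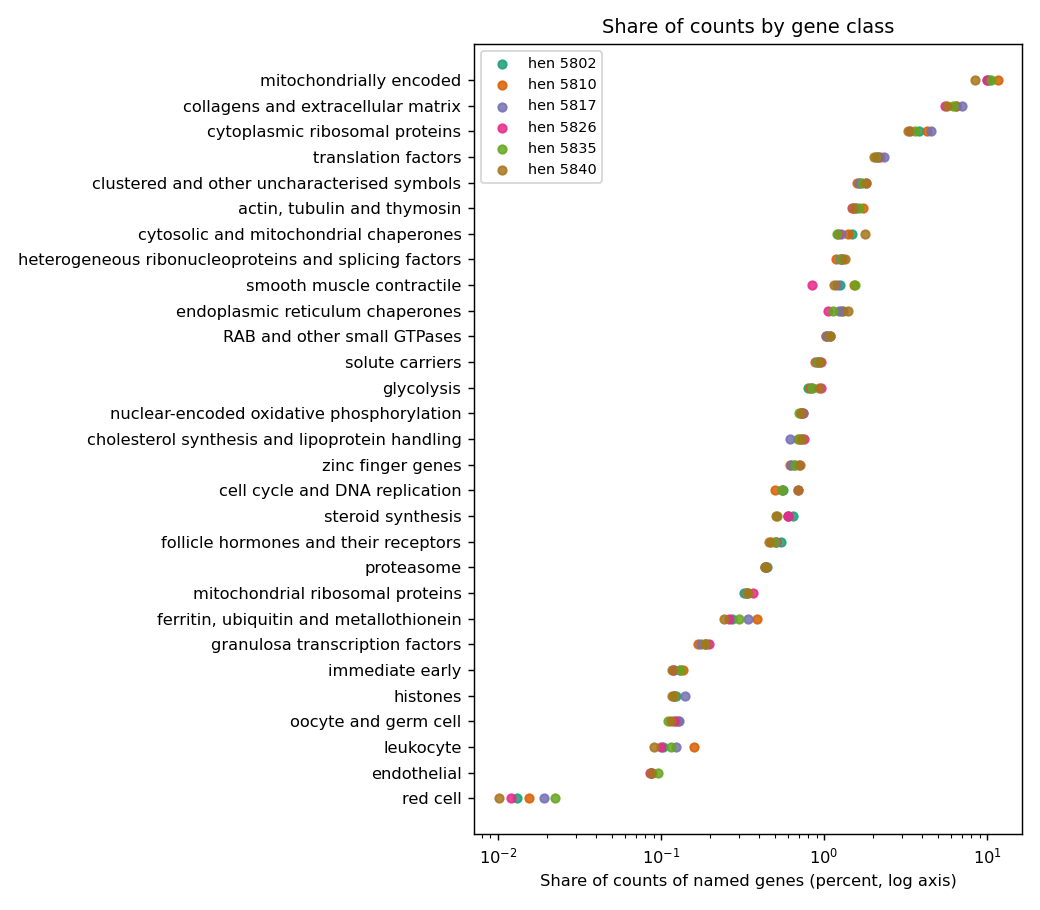
Share of the counts of named genes (percent, log axis) in each gene class, 1 point per hen. The red cell, leukocyte and smooth muscle classes spread widely, whereas the proteasome class stayed between 0.434% and 0.445%. Shares are not TMM-scaled.

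Markers of the oocyte, granulosa, theca, connective tissue, muscle and vessels were all detected. The 15 fibroblast and matrix markers summed to 35946 to 52257 CPM and the 16 smooth muscle markers to 6313 to 13547 CPM. Another 12 theca markers summed to 3607 to 5266 CPM and 20 granulosa markers to 3754 to 4713 CPM. The granulosa list includes the steroid synthesis genes CYP11A1 and STAR and the hormone receptor LHCGR, at means of 655, 254 and 94.99 CPM. Their cell type was not tested, so the granulosa sum may not measure granulosa cells alone. Endothelial markers summed to 819 to 948 CPM, leukocyte markers to 860 to 1692 CPM and red cell markers to 96.4 to 222 CPM. The nerve list summed to 99.4 to 139 CPM, most of it from NEFL and NEFM, which averaged 67.0 and 35.7 CPM. DBH, CHAT and STMN2, markers of noradrenergic, cholinergic and other neurons, each averaged under 0.5 CPM. The oocyte list summed to 1137 to 1371 CPM, of which ZP3 took 452 to 890 CPM and ZP1 118 to 389 CPM. In birds ZP3 is made by granulosa cells, and the liver makes ZP1 protein. The ZP1 counts here are of RNA in the follicle tissue, and their cell type was not tested. That sum therefore does not measure the oocyte. DDX4, a helicase that marks germ cells, was at 0.322 to 0.822 CPM, and DAZL, a germ cell RNA-binding protein, at 8.58 to 17.1 CPM.

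The granulosa hormone genes differed widely in level and spread. AMH stood at 707, 581, 534, 1154, 771 and 747 CPM in the 6 hens, rank 128, with hen 5826 highest. INHA, the alpha subunit of inhibin, stood at 127, 19.1, 40.2, 7.47, 17.5 and 23.1 CPM, highest in hen 5802 and lowest in hen 5826. INHBB, the inhibin beta B subunit, ran the same way at 393, 106, 202, 61.6, 124 and 119 CPM. FSHR, the receptor for follicle-stimulating hormone, varied less, 56.0 to 78.1 CPM (65.2 ± 8.81). FST, follistatin, which binds activins, stood at 287 ± 67.3 CPM and LHCGR, the luteinising hormone receptor, at 94.99 ± 17.8 CPM.

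Steroid synthesis genes were spread moderately. CYP11A1, the enzyme that opens steroid synthesis from cholesterol, averaged 655 ± 169.9 CPM (371 CPM in hen 5835 to 849 CPM in hen 5810). STAR, which carries cholesterol into mitochondria, averaged 254 ± 57.5 CPM and CYP17A1, the androgen-forming enzyme of the theca, 1183 ± 261 CPM. CYP17A1 was highest in hen 5810, at 1664 CPM, with the other 5 hens at 989 to 1301 CPM.

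Most well-expressed genes varied little between hens. The median SD of log2 CPM was 0.15 and the median CV 10.4%, against a median CV of 2.95% from counting alone. The common biological coefficient of variation was 0.145. An SD of 1 or more, a typical deviation of about a doubling, was reached by 27 genes, 0.279% of the well-expressed genes, and an SD of 0.5 or more by 258 genes, 2.66%. The median SD fell from 0.25 for genes at 4 to 10 CPM to 0.12 at 100 to 300 CPM, and was 0.21 for the 83 genes at 1000 CPM or more. The most variable and the steadiest genes named next were ranked by these values, so their spread is a description without a test.

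**Figure D3:**
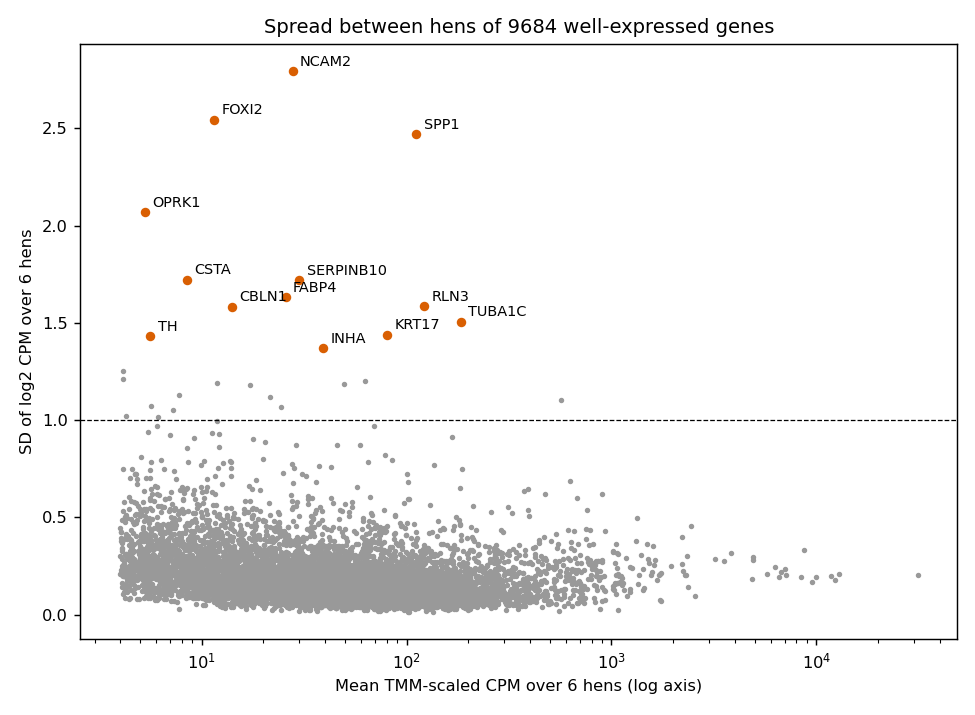
SD of log2 CPM over 6 hens against mean CPM (log axis) for 9684 well-expressed genes. The dashed line marks an SD of 1, passed by 27 genes, and the 13 most variable genes are named, with NCAM2, FOXI2 and SPP1 at the top.

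NCAM2, a neural cell adhesion molecule, varied most, with an SD of log2 CPM of 2.79. It stood at 76.7, 24.03, 44.9, 0.679, 1.13 and 19.3 CPM, so hens 5826 and 5835 were near 1 CPM and the other 4 at 19.3 CPM or more. FOXI2, a forkhead transcription factor, had an SD of 2.54, with 16.1, 27.1 and 23.5 CPM in hens 5802, 5835 and 5840 and 0.705 to 0.965 CPM in the other 3. SPP1, osteopontin, a secreted phosphoprotein, had an SD of 2.47, with 267, 250.3 and 124 CPM in hens 5810, 5817 and 5835 and 6.58 to 11.6 CPM in the rest. These 3 genes thus split the hens into separate clusters.

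SPP1 shared its 3 highest hens, 5810, 5817 and 5835, with 7 others of the 25 most variable genes. They were CSTA and SERPINB10, protease inhibitors, FABP4 and FABP5, fatty acid binding proteins, ALDH1A3, a retinaldehyde dehydrogenase, AKR1B10, an aldo-keto reductase, and EXFABP, an extracellular fatty acid binding protein of the chicken. These genes were picked for having those 3 highest hens, so the lack of overlap with the other hens follows from the choice. FABP4 stood at 40.2, 56.0 and 40.7 CPM in those hens and at 5.38 to 6.29 CPM in the others. ALDH1A3 stood at 95.3, 60.8 and 87.2 CPM against 17.6 to 18.6 CPM. Of the 100 most variable genes, 27 had the same 3 highest hens, and of all well-expressed genes 801, or 8.27%, did. Summed leukocyte markers were 1692, 1289.7 and 1130.6 CPM in hens 5810, 5817 and 5835 and 860 to 1049 CPM in the others. CD74 alone averaged 507 CPM of a mean sum of 1161 CPM, and not every member ran as the sum did. MARCO was lowest in hen 5810, at 22.6 CPM, and TIMD4 highest in hen 5802, at 9.41 CPM. The part of leukocyte markers in the variable genes was not tested.

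Some other variable genes were set apart by 1 hen. OPRK1, the kappa opioid receptor, stood at 0.117 CPM in hen 5835, a value of only 3 counts, and at 4.46 to 7.93 CPM in the other 5. TUBA1C, an alpha tubulin, stood at 16.98 CPM in hen 5810 and at 189.7 to 245 CPM elsewhere. TUBA1C shares sequence with other tubulins. TUBA1A (named after its values were seen) was highest in hen 5810, at 813 CPM against 540 to 636 CPM. TUBA1B stood at 1544 CPM in hen 5810, within the 1274 to 1572 CPM of the others. How reads were divided among these genes was not tested. NKX2-3, a homeobox factor, stood at 0.598 CPM in hen 5840 and 3.25 to 6.41 CPM in the others. TH, tyrosine hydroxylase, the first enzyme of catecholamine synthesis, stood at 20.5 CPM in hen 5802 and at no more than 5.15 CPM in the rest. RLN3, a relaxin family peptide, was instead spread over the hens, at 158, 168, 251, 12.0, 86.9 and 53.7 CPM.

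F13A1, the A chain of clotting factor XIII, was the most abundant of the 25, with 796, 960, 722, 533, 242 and 139 CPM. It made up most of the thrombocyte list, 191 to 1031 CPM, whose other well-expressed members were far lower, ITGB3 at 22.5 ± 4.88, TUBB1 at 25.8 ± 5.33 and GP1BB at 4.49 ± 1.01 CPM, with CVs of 21.7%, 20.7% and 22.4%. Keratin genes also spread. KRT17 stood at 12.5 to 193 CPM and its genomic neighbour KRT14 (named after its values were seen) at 44.5 to 174 CPM, both highest in hen 5835. Hen 5826 was the lowest of the 6 for 38 of the 100 most variable genes, against 21.8% of all well-expressed genes, and hen 5810 the highest for 30, against 16.3%.

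**Figure D4:**
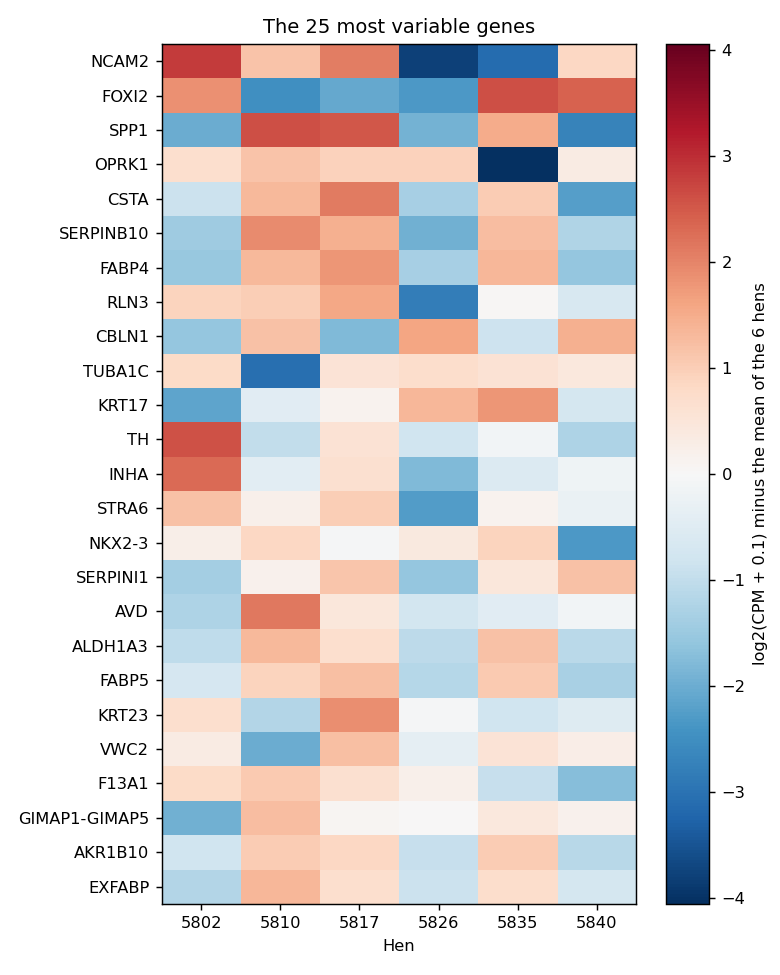
Deviation of log2(CPM + 0.1) from the mean of the 6 hens for the 25 most variable genes, with red above and blue below the mean. SPP1, CSTA, SERPINB10 and FABP4 are red in hens 5810, 5817 and 5835, and OPRK1 is lowest in hen 5835.

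At the other extreme, the 10 steadiest genes differed by less than 1.1-fold between their highest and lowest hens. PSMD12, a subunit of the proteasome cap, stood at 102 to 104 CPM and OSBP, an oxysterol-binding lipid carrier, at 133 to 137 CPM. ARIH1, a ubiquitin ligase, and EIF2B2, a subunit of a translation initiation factor, followed at 101.3 ± 1.05 and 73.9 ± 0.905 CPM. Their CVs, 0.914% for PSMD12 and 1.03% for OSBP, were below the 1.93% and 1.69% of counting error, and they were chosen as the lowest of 9684 values.

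The genes most like the 3 most variable ones were ranked by Pearson's r of log2 CPM over the 6 hens among 9683 genes, with no test. For NCAM2 they included SLC11A2, an iron transporter, NAPRT, an enzyme of NAD synthesis, CCDC171 and NFU1, an iron-sulphur cluster protein. For FOXI2 they were MN1, PDE3A, a phosphodiesterase, TMEM267, SLC38A1, a glutamine transporter, and RGS9. For SPP1 they were SLCO2B1, an organic anion transporter, C1S, a complement protease, TMEM241, THYN1 and TMSB15B, a thymosin. Most of them varied far less than the gene they resembled, NAPRT from 32.3 to 38.5 CPM for instance, whereas C1S ran from 34.2 to 74.7 CPM. Because the hens form clusters for each of the 3 genes, no r is given.

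Pairs of genes were named for their biology, but with earlier results of these data known. They were compared across the 6 hens by exact two-sided permutation over all 720 pairings, 24 pairs in all, with Benjamini-Hochberg adjustment over them. Pairs with DDX4 were left out because it is under 4 CPM. The haemoglobin genes HBAD and HBBA moved together. HBAD stood at 7.49, 10.3, 11.8, 7.11, 13.7 and 5.52 CPM and HBBA at 46.4, 59.3, 74.0, 40.1, 78.2 and 27.3 CPM, both highest in hen 5835 and lowest in hen 5840. Pearson's r was 0.985 (exact p = 0.00139, adjusted 0.0167) and Spearman's rho 1.0 (exact p = 0.00278, adjusted 0.0222), and r was 0.983 without the 2 hens farthest from the median of HBAD.

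PTPRC, the leukocyte surface phosphatase CD45, and CD74, the invariant chain of antigen presentation, also moved together. PTPRC stood at 18.9, 35.3, 27.6, 18.5, 21.4 and 17.6 CPM and CD74 at 457, 755, 582, 404, 482 and 364 CPM, with hen 5810 highest in both. Their r was 0.979 (exact p = 0.00139, adjusted 0.0167), rho 1.0 (exact p = 0.00278, adjusted 0.0222) and r without the 2 farthest hens 0.892. HSPA5 and HSP90B1, chaperones of the endoplasmic reticulum, passed by rank only, with rho 1.0 (exact p = 0.00278, adjusted 0.0222), r 0.852 (exact p = 0.0222, adjusted 0.107) and r 0.795 without the 2 farthest hens. HSPA5 was highest in hen 5840, at 2144 CPM, and lowest in hen 5826, at 1197 CPM.

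SPP1 with PTPRC was the third pair under the threshold by r (exact p = 0.00278, adjusted 0.0222) and was not under it by rho (exact p = 0.0167, adjusted 0.0667). The hens form separate clusters of 3 for SPP1, so no pooled r is given for it with PTPRC or INHA, and the relation cannot be tested within clusters of that size. PTPRC was 21.4 to 35.3 CPM in the 3 hens with high SPP1 and 17.6 to 18.9 CPM in the others.

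The other pairs did not pass by r or by rho. For CDK1 and TOP2A, a mitotic kinase and a DNA topoisomerase of dividing cells, r was 0.912 (exact p = 0.00833, adjusted 0.05, at the threshold and not under it), rho 0.943 (exact p = 0.0167, adjusted 0.0667) and r 0.985 without the 2 farthest hens. AMH and INHA ran in opposite directions without passing, with r -0.55 (exact p = 0.226, adjusted 0.362), rho -0.71 (exact p = 0.136, adjusted 0.251) and r 0.0822 without the 2 farthest hens. STAR and CYP11A1 gave r 0.805 (exact p = 0.0389, adjusted 0.117), rho 0.771 (exact p = 0.103, adjusted 0.224) and r 0.671 without the 2 farthest hens.

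Which genes follow a marker of each cell type was asked with edgeR's quasi-likelihood test of the slope on the marker's log2 CPM over all well-expressed genes, with Benjamini-Hochberg adjustment at 0.05. The slope is the change in log2 CPM per unit of log2 CPM of the marker. INHA was followed by INHBB alone, 0.0103% of 9683 genes, with a slope of 0.66 ± 0.041 (SE, n = 6, edgeR adjusted p = 0.00351). That call was lost without hen 5802, which had the highest INHA, or without hen 5826, which had the lowest, and DESeq2 called 60 genes.

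No gene passed in edgeR for AMH, CYP17A1, ACTA2 (smooth muscle actin) or the total counts of the library, 0.0% of the genes tested in each. At an unadjusted p under 0.05 edgeR gave 2160, 809, 561 and 1211 genes for these. DESeq2 called 804 (380 rising and 424 falling) for AMH, 49 for CYP17A1, 37 for ACTA2 and 69 for total counts, and limma-voom 0 in each. DESeq2 gave an adjusted p to 9683 genes for AMH and CYP17A1, 9307 for ACTA2 and only 1048 for total counts. For AMH, edgeR called 232 genes without hen 5840, and for ACTA2 it called 3 without hen 5817.

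The oocyte marker DAZL was followed by more genes. DAZL stood at 10.4, 10.2, 8.58, 17.1, 11.1 and 14.7 CPM, highest in hens 5826 and 5840 and lowest in hen 5817. edgeR called 505 genes that rose with DAZL, 5.22% of 9683, and 412 that fell, 4.25%. Without hen 5817 or without hen 5826 no gene passed in edgeR, although 2346 and 2076 had an unadjusted p under 0.05. Without hen 5840 there were 47 calls, without hen 5810 there were 307, without hen 5802 there were 514 and without hen 5835 there were 613. The median slope of the oocyte list, 0.76 with all hens, was 0.70 without hen 5817, 0.94 without hen 5826 and 0.72 without hen 5840.

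Hens 5826 and 5840, with the most DAZL, also stood apart in measures of the whole library. From the most to the least DAZL the hens were 5826, 5840, 5835, 5802, 5810 and 5817, and in that order their scores on the first principal component, 45.5% of the variance, were 19.6, 16.6, -0.79, -4.71, -14.8 and -15.9. TMM factors in the same order were 1.051, 1.054, 1.014, 0.976, 0.948 and 0.962. The row with no gene name took 9.79%, 9.44%, 8.93%, 8.99%, 8.59% and 8.42% of the counts. Only the component had the exact order of DAZL, while both other measures were highest in hens 5826 and 5840 and lowest in hens 5810 and 5817. Summed smooth muscle markers, in that order, were 6313, 8826, 12903, 10596, 13547 and 10062 CPM, and summed leukocyte markers were 946, 860, 1130.6, 1049, 1692 and 1289.7 CPM. The part of these measures in the genes that follow DAZL was not tested.

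Of 15 other oocyte markers tested, 7 rose with DAZL, 1 fell and 7 did not pass. Over all genes 5.22% rose and 4.25% fell. The median slope of the oocyte markers was 0.76, against -0.01 over all genes. PIWIL1, a piRNA-binding Argonaute protein, stood at 14.3, 12.1, 12.3, 28.6, 14.9 and 22.99 CPM and had the steepest slope of the called members, 1.34 ± 0.16 (SE, adjusted p = 0.0158). ZP2, an egg coat protein, stood at 167, 163, 166, 292, 219 and 269 CPM with a slope of 0.96. BMP15, an oocyte growth factor, MOS, a meiotic kinase, BTG4, an adaptor in clearing maternal RNA, TDRD15 and MAEL, piRNA pathway proteins, rose with slopes of 0.76 to 1.13. GDF9, the partner of BMP15, had a slope of 0.68 and did not pass (adjusted p = 0.107). ZP3, the egg coat protein of granulosa cells, fell with a slope of -0.90, from 890 CPM in hen 5817 to 452 CPM in hen 5826.

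Cytoplasmic ribosomal protein genes fell with DAZL in 52 of 69 cases and rose in none, against 4.25% and 5.22% of all genes. Their median slope was -0.58. RPL4, a large-subunit protein, stood at 1554, 1815, 1885, 1259.5, 1423 and 1217 CPM, highest in hens 5817 and 5810. Leaving out hen 5817, 5826 or 5840 left none of the 69 called, with median slopes of -0.55, -0.75 and -0.54. Of 46 cell cycle and replication genes 11 rose and none fell, against 5.22% and 4.25% of all genes. Without hen 5817, 5826 or 5840, 0 of the 46 were called. Those that rose included CCNB1, a mitotic cyclin, and CDC6, which loads replication helicases. CCNB1 stood at 711, 750, 622, 1044, 787 and 876 CPM.

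Among granulosa markers AMH and FOXL2, a granulosa transcription factor, rose and GJA1, a gap junction protein, fell, of 19 tested. Over all genes 5.22% rose and 4.25% fell. The median slope of the granulosa markers was -0.25, against -0.01 over all genes. Calls among the 19 fell to 0 without hen 5810, 5817 or 5826, and to 1 without hen 5802 or 5840. Of 16 smooth muscle markers, TPM2 and MYL9 fell, against 4.25% of all genes, and 15 of the 16 slopes were negative, with a median of -0.83. DESeq2 called 7 of them downward and limma-voom 4, against 863 and 412 of all 9683 genes. The median slope of these muscle markers was -1.19 without hen 5817, -0.32 without hen 5826 and -0.91 without hen 5840. In those 3 fits 0 were called. Scaled by library totals alone, 14 slopes were negative, with a median of -0.57. Of 15 fibroblast and matrix markers SPARC, FAP, a cell surface protease, and THY1 fell in edgeR, against 4.25% of all genes. All 15 slopes were negative with a median of -0.41, and DESeq2 called 9 downward, against 863 of all 9683 genes. Without hen 5817, 5826 or 5840 the median slope was -0.33, -0.53 and -0.43, with 0 called. Scaled by library totals alone, 12 slopes were negative, with a median of -0.21. In the larger matrix class 6 of 67 genes fell, SPARC and FN1 (fibronectin) included, against 4.25% of all genes. In that class 60 slopes were negative, with a median of -0.37. Nuclear-encoded oxidative phosphorylation genes fell in 11 and rose in 1 of 75 cases, against 4.25% and 5.22% of all genes. Without hen 5817, 5826 or 5840, 0 of the 75 were called. Of 3 epithelial markers tested, EPCAM, an adhesion molecule, rose from 109 CPM in hen 5817 to 204 CPM in hen 5826. KRT7 and KRT18, keratins of simple epithelia, fell, against 5.22% rising and 4.25% falling over all genes. Both keratin calls were lost without hen 5810 or 5840, 1 of them without hen 5835, and all 3 calls without hen 5817 or 5826. No leukocyte, endothelial, red cell or thrombocyte marker passed in edgeR, of 18, 11, 5 and 4 tested. At an unadjusted p under 0.05 edgeR gave 13 of these 38, against 2901 of all 9683 genes. DESeq2 called 10 of the 38, against 1691 of all 9683. By limma-voom 0 of the 38 were called, against 513 rising and 412 falling of all genes. Negative slopes numbered 17 of 18 leukocyte markers (median -0.76) and 5 of 5 red cell markers (median -0.95).

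The 5 genes with the smallest p that rose with DAZL were ATP8A2, a phospholipid flippase, PGM2L1, a sugar phosphate enzyme, SLC15A1, a peptide transporter, EPCAM and BTC, an epidermal growth factor receptor ligand, with slopes of 0.93 to 1.20. ATP8A2 stood at 81.8, 70.0, 60.9, 134, 92.6 and 127 CPM. The 5 that fell were ST6GAL1, a sialyltransferase, PPL, periplakin, SELENBP1, a selenium-binding protein, GJB5, a connexin, and FKBP10, a collagen chaperone, with slopes of -1.88 to -0.98. ST6GAL1 stood at 89.0, 93.5, 110.0, 46.1, 82.2 and 61.3 CPM, falling in the order in which DAZL rose (slope -1.24 ± 0.098, SE, edgeR adjusted p = 0.0135). Scaling by library totals alone moved the median slope of all genes from -0.01 to 0.13 and the split of calls to 1520 rising and 246 falling. Under that scaling ribosomal protein genes had a median slope of -0.37 and 48 calls downward, and the oocyte list had 10 rising and 1 falling.

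**Figure D5:**
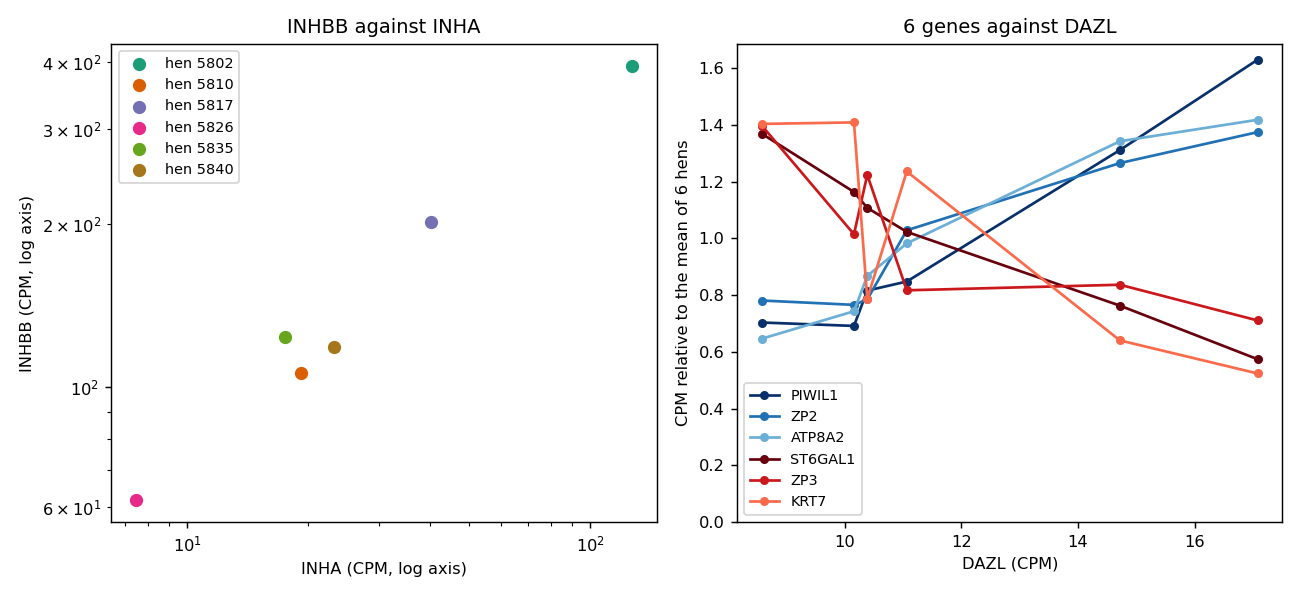
Left, INHBB against INHA (CPM, both log axes), 1 point per hen, running from 7.47 CPM of INHA in hen 5826 to 127 CPM in hen 5802. Right, CPM of 6 genes relative to their mean over hens against DAZL (CPM), with PIWIL1, ZP2 and ATP8A2 higher and ST6GAL1, ZP3 and KRT7 lower in the 2 hens with the most DAZL.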

How the data were processed

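Per the labels' protocols, RNA was extracted with TRIzol, enriched for poly-A, prepared with TruSeq chemistry and sequenced on a NovaSeq 6000 as read pairs of 100 bp. Builds GRCg6a and galGal6 and the tools kallisto 0.44.0, bcl2fastq 2.19, DESeq 0.99.484 and DESeq2 1.38.3 appear in the submitters' processing notes without roles. The authors deposited estimated counts per gene symbol, not normalised. They were whole numbers, and rounding changed none. The step from transcripts to genes is not stated there. A row with a blank name, 9.02% ± 0.515 of counts (SD, n = 6), entered neither library sizes nor tests.

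Only the 6 Pre-recruitment libraries were used, 20628640 to 29082988 counts each, so counting error is small beside the spread between hens for most genes. Scaling was by TMM, log2 CPM used a prior count of 2, and genes with a mean CPM of 4 or more were called well expressed. edgeR 4.0.16 (robust quasi-likelihood fits, two-sided slope tests), DESeq2 1.42.0 and limma 3.58.1 ran in R 4.3.3, and exact permutation tests in Python 3.11.15. The slope test was checked on simulated data, whose dispersion, slopes and pass criteria were revised after a first version with a constant dispersion recovered too few genes, so the check covers the code and not the power of the tests. Gene names are the table's, of which 11845 matched RefSeq symbols of another build (GRCg7b), used for names and neighbours only.

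Named genes are the 25 highest by mean CPM, the 25 with the largest and 10 with the smallest SD of log2 CPM, the genes of the pairs and slope tests, the top 3 of each class and list and the marker lists, the 5 leading genes in each direction per slope test and the 5 most alike to each of the 3 most variable genes. Other names were chosen after their values were seen, and a few genes and 1 pair that this rule takes are not reported here. The follicle group, gene classes, lists, pairs and slope markers were all chosen with earlier results of these data known. Nothing in the labels names separate cultures or batches beyond the bird, and p-values measure the spread between these 6 libraries. Alternatives were another scaling, count filters, prior counts, other tools and leaving out each hen.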

Additional observations from a re-analysis of the deposited data

Results flagged for a closer look

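Of 227 groups of 6 values tested, 8 (3.52%) had 1 hen far from the rest by Dixon's test at 95%. Chance flags about 1 in 20 independent groups, but that rate does not apply here. From these same values, OPRK1, TUBA1C and NKX2-3 had been chosen for a large spread and STRN for a small spread. Class shares, untransformed, and genes, on log2 CPM, were also tested together, so the groups overlap. The CPM of flagged genes are given below, but the flags refer to the log2 scale. No conclusion is drawn from the share flagged. Hen 5817 had the highest share of histone counts, 0.140%, and hen 5835 the highest share of endothelial counts, 0.0962%. The endothelial flag rests on shares of library totals. In TMM-scaled CPM the same genes summed to 948 CPM in hen 5835 and 933 CPM in hen 5810. OPRK1 stood apart in hen 5835 at 0.117 CPM, TUBA1C in hen 5810 at 16.98 CPM and NKX2-3 in hen 5840 at 0.598 CPM. STRN stood apart in hen 5802 at 29.01 CPM, FOXL2 in hen 5826 at 435 CPM and DDX5 in hen 5810 at 836 CPM. The row with a blank name, used in no comparison, held 9.02% of all counts on average.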

How the results depend on the processing

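No paired analysis was possible because 1 stage was used with 1 library per hen. Counts per coding length were not run, since lengths were not used here. Counting the blank row in the total moved the share of the 100 most abundant genes from 27.5% to 24.999% and of matrix genes from 6.22% to 5.66%, and leaving out mitochondrially encoded genes moved them to 20.5% and 6.92%. The median SD was 0.18 with no filter on low counts. Genes with an SD of 1 or more numbered 57 at a mean CPM of 1 or more, 17 at 10 or more and 121 with no filter.

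Pairs past the threshold by r, SPP1 with PTPRC included, fell from 3 to 0 whichever hen was left out, but fewer pairings of 5 hens exist, so this says nothing about stability. The r of AMH-FSHR changed sign to 0.0442 and that of CYP17A1-CYP19A1 to -0.17 under library totals. Leaving out 1 hen, r ranged from -0.58 to 0.253 for AMH-FSHR, -0.0725 to 0.556 for INHA-LHCGR, -0.0682 to 0.731 for STAR-HSD3B1, -0.24 to 0.592 for CYP17A1-CYP19A1, -0.44 to 0.495 for SPP1-INHA and -0.95 to 0.0734 for ACTA2-AMH. The slope of NANOS1 on DAZL ranged from -0.21 to 1.01. None of these was called, and slopes were followed for called genes of the lists and for the oocyte list.

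Genes that follow DAZL numbered 917, 1766 under library totals and 1691 by DESeq2, and 0 to 613 leaving out 1 hen. For AMH they numbered 0, 110 under library totals, 804 by DESeq2 and 0 to 232 leaving out 1 hen. For INHA they numbered 1, 2 at a mean CPM of 1 or more, 2 with no filter, 60 by DESeq2 and 0 to 2 leaving out 1 hen. DESeq2 called 49 for CYP17A1, 37 for ACTA2 (0 to 3 in edgeR leaving out 1 hen) and 69 for total counts. These were out of 9683, 9307 and 1048 genes with an adjusted p. The cause of these differences was not tested. Genes of a few counts per library are limited by depth.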
